A study of Homo sapiens with 16 samples.

Results

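The 47 genes described here encode histone lysine methyltransferases (28 genes) and histone lysine demethylases (19 genes), taken from a gene-by-library count matrix of 35993 gene symbols by matching their symbols. The RNA-seq libraries came from 4 human lines named 253J, J82, RT112 and TCCSUP, each of bladder cancer origin and labelled wild type. Each line was treated for 48 h with CM-1758, a histone deacetylase inhibitor, at the IC50 determined for that line, or with vehicle alone (0.01% DMSO). The 8 groups held 2 libraries each, described by the study's methods as independent biological replicates. The dose therefore differed between lines, so a difference in response between lines cannot be told apart from a difference in dose. Each line is a single established culture and not a sample of patients.

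Histone lysine methyltransferases place methyl groups on lysines of the histone tails and core, and demethylases remove them. Methylation of H3K4 marks promoters and enhancers of active genes, H3K36 and H3K79 methylation marks transcribed gene bodies, and H3K9, H3K27 and H4K20 methylation is tied to silenced or compacted chromatin. Demethylases fall into flavin-dependent amine oxidases (KDM1A and KDM1B) and Jumonji-domain dioxygenases. Several of these enzymes are recurrently altered in urothelial carcinoma, KDM6A, KMT2C and KMT2D among them, and many work in complexes that also hold histone deacetylases.

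With TMM scaling in 1 fit of all libraries, more members fell than rose in each line. In RT112 and TCCSUP this was not kept when libraries were scaled by their totals alone. In RT112 it was also not kept in fits of each line alone or with a stricter filter on low counts. Of the 47 members, 12 moved the same way in all 4 lines, and 11 of these, all but KDM2B, did so with scaling by totals too. The lower ones were the H3K36 methyltransferases NSD1 and NSD2, the H3K9 methyltransferases SUV39H1 and SUV39H2, SETD7, SMYD2 and SMYD5, and the demethylases KDM2B, KDM3B and PHF2. The higher ones were the demethylases KDM1B and KDM7A. The promoters of 4 of them are printed here. All 4 windows are rich in G and C, from 73.6% in KDM1B to 86% in NSD2. Among the windows of the other members called in all 4 lines, this share ran from 54% in KDM2B to 83.2% in SMYD2. Each run is the 250 bases before the RefSeq transcript start, 5′ to 3′ on the gene's strand, in build GRCh38.p14, with capitals for the letters of a searched motif. The windows are chr4:1871143-1871392, plus strand for NSD2, chr9:93576334-93576583, plus strand for PHF2, chr6:18155172-18155421, plus strand for KDM1B, and chr7:140176984-140177233, minus strand for KDM7A.
NSD2: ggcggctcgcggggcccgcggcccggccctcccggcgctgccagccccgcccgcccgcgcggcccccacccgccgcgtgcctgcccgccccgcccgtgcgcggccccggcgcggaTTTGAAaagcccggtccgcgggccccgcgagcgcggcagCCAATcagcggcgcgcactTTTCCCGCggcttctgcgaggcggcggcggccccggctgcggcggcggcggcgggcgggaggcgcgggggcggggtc
PHF2: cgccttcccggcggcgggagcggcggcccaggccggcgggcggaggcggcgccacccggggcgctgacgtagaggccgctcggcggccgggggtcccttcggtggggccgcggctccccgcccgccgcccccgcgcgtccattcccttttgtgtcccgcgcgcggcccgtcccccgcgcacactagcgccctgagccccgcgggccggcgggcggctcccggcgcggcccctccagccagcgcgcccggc
KDM1B: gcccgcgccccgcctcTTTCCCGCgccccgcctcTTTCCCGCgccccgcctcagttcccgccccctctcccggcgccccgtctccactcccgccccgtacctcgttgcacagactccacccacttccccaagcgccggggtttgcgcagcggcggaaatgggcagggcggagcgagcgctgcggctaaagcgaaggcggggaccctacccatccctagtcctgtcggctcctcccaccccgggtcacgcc
KDM7A: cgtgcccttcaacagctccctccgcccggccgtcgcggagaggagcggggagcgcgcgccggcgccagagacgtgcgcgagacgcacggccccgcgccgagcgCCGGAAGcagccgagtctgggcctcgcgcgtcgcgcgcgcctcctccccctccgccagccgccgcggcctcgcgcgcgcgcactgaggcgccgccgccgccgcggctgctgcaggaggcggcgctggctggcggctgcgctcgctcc

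A promoter was matched for 44 of the 47 members, taking the first listed start where there were several (13 members); which start these cells use was not measured. The deposited files use another build, GRCh37, so no position of theirs was set beside these windows. Windows were searched on both strands for TTTGGCGC and TTTCCCGC (E2F-type), TTTGAA (the cell cycle homology element), CCAAT (NF-Y) and CCGGAAG (ETS-type), none of which overlap each other in the printed windows. NSD2, among the lower members, held the cell cycle homology element, the NF-Y motif and TTTCCCGC in its window. Of the windows of the 10 lower members, only that of NSD2 held TTTGAA or TTTCCCGC, while 3 held CCAAT and 2 held CCGGAAG. KDM1B, among the higher members, held TTTCCCGC at 2 positions, KDM7A held CCGGAAG, and PHF2 held none of the 5. TTTCCCGC was in 4.55% of the members' windows (2 genes, NSD2 and KDM1B) and 1.42% of all 27305 promoters. CCAAT was in 25% against 33%, CCGGAAG in 9.09% against 8.82%, and TTTGAA in 4.55% against 13.6%. TTTGGCGC was in none of the members' windows and in 0.553% of all promoters. The members' windows held a median of 23 CpG dinucleotides against 11 over all promoters, and 66% G and C against 58%.

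All 47 members passed the filter on low counts and had at least 10 counts in every library. Library totals ran from 22506431 to 32537104 counts, with a median of 28332731, and were lower with CM-1758 (median 23590242.5) than in the controls (median 29363076). Abundant small noncoding RNA genes took 9.58% to 13.2% of the counts in controls and 10.2% to 21.3% with CM-1758. The 2 J82 control libraries agreed least over the members, with a Pearson r of 0.949 between their log2 CPM across the members (genes, not replicates) against 0.982 to 0.996 within the other groups. KRT18 was at 855 CPM or more in the controls of each line, but other epithelial markers were low in some. EPCAM was at 0.467 CPM in 253J and 1.24 in J82, KRT7 at 4.94 in 253J and 5.95 in TCCSUP, and CDH1 at 3.82 in J82. The urothelial genes UPK2 and KRT20 were listed at 0 in the controls of 253J, J82 and TCCSUP, GATA3 was at 6.29 CPM or less there, and RT112 had UPK1B at 1408 CPM and GATA3 at 37.5 CPM. However, PPARG was at 28.4 CPM in J82 and 88.9 in TCCSUP, and UPK3A was at 0 in the controls of every line, RT112 included. Of the leukocyte markers CD3E was at 0 in all control libraries, LYZ was at 0.415 CPM or less, and PTPRC reached 9.58 CPM in TCCSUP. The endothelial marker PECAM1 was at 2.1 CPM or less in the controls. Summed over 3 endothelial markers the libraries were at 0 to 4.94 CPM in controls and 2.02 to 6.03 with CM-1758. Other marker lists moved with CM-1758 in some lines. The summed level of 3 mesenchymal markers in RT112 was 4.88 to 6.24 CPM in controls and 38.1 to 42.7 with CM-1758, that of 9 urothelial markers in RT112 was 1991 to 2241 and 839 to 916, and that of 6 epithelial markers in TCCSUP was 1228 to 1357 and 369 to 467. In the other lines the mesenchymal sum was lower with CM-1758, at 1473 to 1611 against 1872 to 2267 CPM in 253J. It was at 566 to 733 against 824 to 878 in J82, and 251 to 287 against 561 to 666 in TCCSUP. The urothelial sum was higher in 253J, J82 and TCCSUP, at 27.7 to 28.8 against 12.3 to 12.8 CPM in 253J. The epithelial sum was lower in 253J too, at 1851 to 2343 against 3180 to 4332. Its libraries overlapped in J82 and lay close together in RT112. The part of these marker changes in the members' changes was not tested. By the annotation, 14 members share exon positions with a gene on the opposite strand, SUV39H2 (DCLRE1C), KDM2B (RNF34), DOT1L (PLEKHJ1), SETDB1 (CERS2) and KDM5A (CCDC77) among them. The strand setting of the counting is not given in the sources used here, so reads of such partners cannot be told apart. EZH2 and PHF2 each have 1 named pseudogene.

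Levels are CPM, that is, counts divided by the TMM-scaled library size and set to a common total, which compare libraries for a gene and not genes with each other. A gene was called higher or lower in a line when the Benjamini-Hochberg adjusted p of the quasi-likelihood test (edgeR, 21297 genes) was under 0.05. In 253J, 8 members were higher and 18 lower, where 28.8% of all tested genes were higher and 22.4% lower. In J82, 7 were higher and 19 lower, against 24% and 18.5%. In RT112, 10 were higher and 14 lower, against 27.4% and 20.2%, and in TCCSUP 7 were higher and 21 lower, against 32% and 22.1%. As shares of the 47 members, the lower calls came to 38.3%, 40.4%, 29.8% and 44.7% in 253J, J82, RT112 and TCCSUP. In bulk libraries, fewer cells expressing a gene within a culture and less of its RNA per cell cannot be told apart.

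Lower calls were also more frequent among well-expressed genes in general. Among the 11984 genes that, like every member, had at least 10 counts in every library, 33.7%, 29.2%, 31.2% and 32.7% were lower in the lines 253J, J82, RT112 and TCCSUP. RT112's members, at 29.8% lower, thus lay below these well-expressed genes, and the members of the other lines above them. The higher share among these genes was 28%, 20.9%, 21.8% and 23.6%, and the members' was 17%, 14.9%, 21.3% and 14.9%. The median log2 fold change of the members was -0.28 for 253J, -0.43 for J82, -0.01 for RT112 and -0.20 for TCCSUP, beside 0.10, 0.05, 0.12 and 0.20 over all tested genes and -0.07, -0.12, -0.11 and -0.10 over the well-expressed ones. Scaling by library size alone in place of TMM raised the median of all genes by 0.27, 0.15, 0.15 and 0.31, and the members then split into 12 higher and 13 lower in 253J, 7 and 16 in J82, 14 and 13 in RT112, and 13 and 11 in TCCSUP. The excess of lower over higher members in RT112 and TCCSUP is thus not kept under that scaling.

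**Figure D1:**
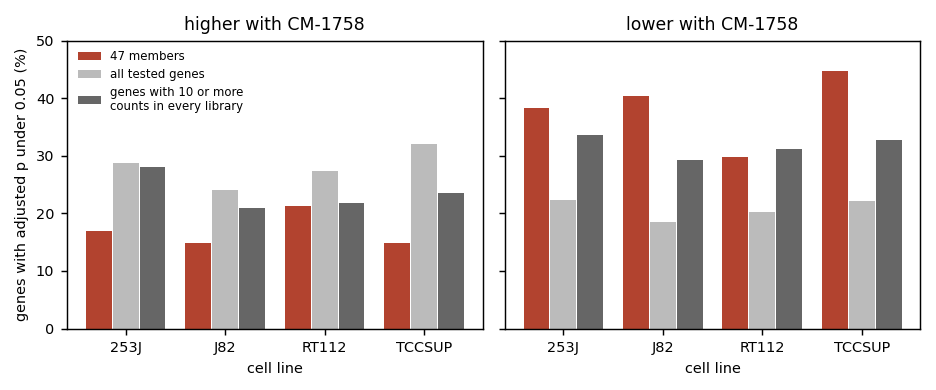
Share of genes called higher (left) or lower (right) with CM-1758 in each cell line, in percent of the genes named in the legend, at an adjusted p under 0.05. Among lower calls the members (red) reach 44.7% in TCCSUP, against 22.1% of all tested genes and 32.7% of genes with 10 or more counts in every library.

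Large changes were few. At the thresholds of the study (log2 fold change beyond 2 and adjusted p under 0.01), 253J had 1 member higher, KDM6B, and 3 lower, NSD1, PHF2 and SUV39H1, against 9.43% and 3.5% of all genes. In J82, KDM7A was the 1 higher member and 0 were lower, against 8.81% and 1.24%. RT112 had 0 in either direction, where 11.4% and 1.39% of all genes passed, and TCCSUP had 0 higher against 14.2% and 1 lower, NSD1, against 3.31%. At an adjusted p under 0.05 alone, RT112 had 10 higher and 14 lower members, as given above.

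Over the 188 pairs of member and line, 32 were higher, 72 lower and 84 not called. Treated and control libraries overlapped in 0 of the called pairs, but they were also apart in 41 of the 84 pairs without a call. The share of separated pairs over all tested genes was not computed, so these counts are not read as a result about the members. Methyltransferases accounted for 10 of the higher and 52 of the lower calls in 112 pairs, and demethylases for 22 and 20 in 76 pairs. By line, 24% to 32% of all tested genes were higher and 18.5% to 22.4% lower. Of the well-expressed genes, 20.9% to 28% were higher and 29.2% to 33.7% lower. The difference between the classes was not tested. No call was made in any line for KMT2D, SETD1A, SETD1B, KDM8 and PHF8. Of all tested genes, 6.01% were lower and 6.69% higher in all 4 lines, and of the well-expressed genes 10.5% and 5.53%; among the 47 members these were 10 and 2 genes.

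**Figure D2:**
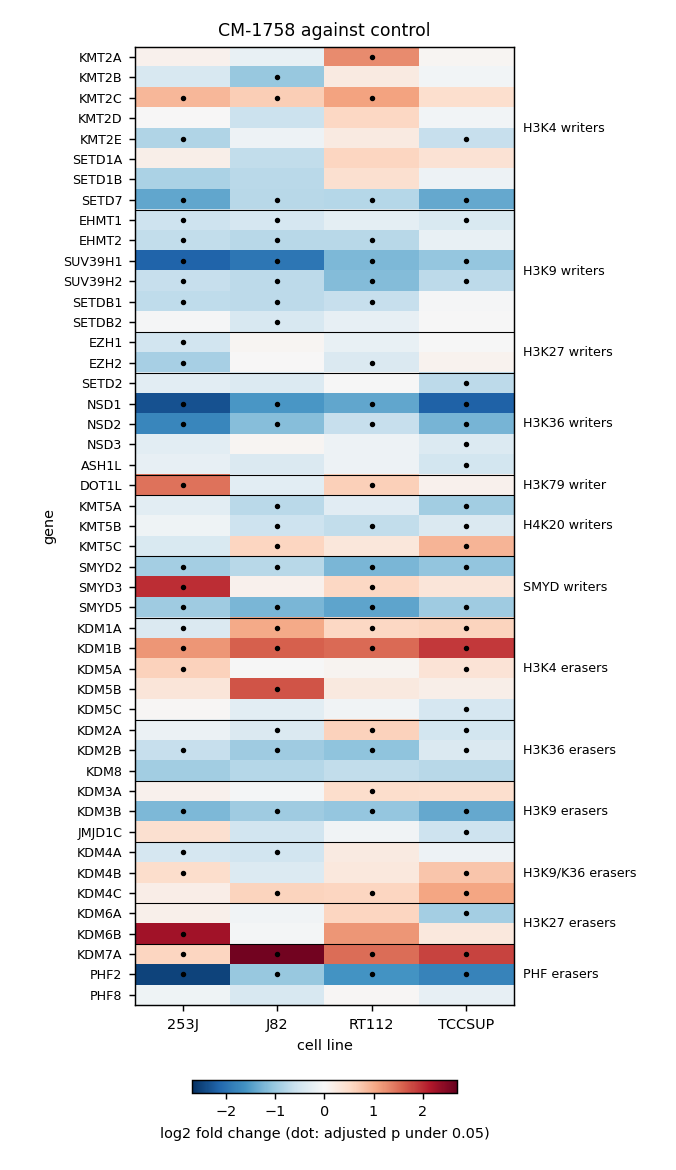
Log2 fold change of CM-1758 against control for the 47 members (rows, grouped by the lysine they act on) in the 4 cell lines (columns), on a scale from blue (lower) to red (higher), with a dot at an adjusted p under 0.05. The rows of NSD1, NSD2, SUV39H1, KDM3B and PHF2 are blue with a dot in every column, and those of KDM1B and KDM7A red.

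Of the 8 H3K4 methyltransferases, SETD7, which monomethylates H3K4 and also nonhistone proteins, was the one lower in every line. Its control libraries were at 43.5 and 42.6 CPM in 253J, 78.6 and 101 in J82, 48.7 and 54.2 in RT112, and 85 and 80.8 in TCCSUP. The CM-1758 libraries were at 18.1 and 14.7, 57.4 and 49.2, 26.3 and 33.9, and 30.2 and 33.8 CPM in the same order, below both controls each time. The log2 fold change was -1.40 (SE 0.17, adjusted p = 7.1e-06) in 253J and -1.37 (SE 0.17, adjusted p = 7.6e-06) in TCCSUP, and about -0.75 and -0.77 in J82 and RT112. KMT2C, one of the enhancer H3K4 methyltransferases, rose in 253J (log2 fold change 0.90), J82 (0.67) and RT112 (1.08), and was 0.46 (adjusted p = 0.064) in TCCSUP. KMT2C shares long stretches with copies elsewhere in the genome, so its counts are uncertain. KMT2A, the MLL1 enzyme, was higher in RT112, at 191 and 236 CPM against 85.8 and 90.8 (log2 fold change 1.27, SE 0.27, adjusted p = 0.0013), and was not called in the other 3 lines, where its log2 fold changes lay between -0.21 and 0.12. KMT2B was lower in J82 and KMT2E lower in 253J and TCCSUP. The spread of this group was wide in J82, where the control libraries of KMT2A were at 112 and 54.3 CPM and those of KMT2D at 60.9 and 19.5.

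The H3K9 methyltransferases were lower or not called: of 6 genes, 5, 6, 4 and 3 fell in the lines 253J, J82, RT112 and TCCSUP, respectively, and 0 were higher. Of all tested genes 22.4%, 18.5%, 20.2% and 22.1% were lower in these lines, and of the well-expressed genes 33.7%, 29.2%, 31.2% and 32.7%. The difference of this group from those shares was not tested. SUV39H1, which trimethylates H3K9 in constitutive heterochromatin, fell from 25.4 and 23.3 CPM to 6.46 and 4.49 in 253J and from 23.9 and 22.3 to 6.8 and 5.18 in J82. In RT112 it went from 18.4 and 19.5 to 9.43 and 7.02, and in TCCSUP from 15.9 and 18.8 to 7.9 and 8.93. Controls and treated libraries were apart in each line, and the log2 fold change was -2.16 (SE 0.21), -1.95 (SE 0.21), -1.20 (SE 0.20) and -1.05 (SE 0.20) in 253J, J82, RT112 and TCCSUP, with adjusted p values of 1e-06, 4.3e-06, 0.00022 and 0.00057. Its paralogue SUV39H2 changed by -0.62, -0.71, -1.18 and -0.70, with the largest change in RT112, where SUV39H2 went from 38.8 and 40.6 to 18.1 and 17 CPM. Within libraries, the log2 ratio of SUV39H1 to SUV39H2 counts fell by 1.55 (SD of the change 0.24) in 253J, by 1.26 (SD 0.40) in J82 and by 0.34 (SD 0.19) in TCCSUP, and its change in RT112 (-0.04, SD 0.24) was within the replicate spread. EHMT1 and EHMT2, which as G9a-like enzymes dimethylate H3K9 in euchromatin, were each lower in 3 lines, EHMT1 not being called in RT112 and EHMT2 not in TCCSUP. SETDB1, the partner of TRIM28 at repeats, was lower in 253J, J82 and RT112 with log2 fold changes of -0.69, -0.70 and -0.62, and was -0.04 in TCCSUP. SETDB2 was lower in J82 alone (-0.43, adjusted p = 0.037).

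EZH2 and EZH1, the alternative catalytic subunits of Polycomb repressive complex 2 that methylate H3K27, were lower in 253J. EZH2 went there from 88.5 and 81.3 to 41.4 and 50.3 CPM (log2 fold change -0.89, SE 0.13, adjusted p = 4.4e-05) and EZH1 from 27.9 and 36.9 to 20.1 and 25.2 (-0.51, SE 0.16, adjusted p = 0.014). In RT112, EZH2 was lower at -0.38 (SE 0.13, adjusted p = 0.025), a call lost when any 1 of its 4 libraries was left out (adjusted p from 0.084 to 0.108). In J82, EZH2 libraries overlapped, at 94.1 and 97 CPM in controls and 101 and 90 with CM-1758, and in TCCSUP they were at 109 and 102 against 118 and 107. The EZH1 call in 253J was lost without control replicate 3 (adjusted p = 0.20) or without CM-1758 replicate 1 (adjusted p = 0.14). The effect on EZH2 differed between lines (adjusted p of the interaction = 0.0014).

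Among the 5 H3K36 methyltransferases, NSD1 and NSD2, which make the dimethyl mark, were lower in every line. SETD2, the trimethylating enzyme, NSD3 and ASH1L were called lower in TCCSUP alone. Their log2 fold changes there were -0.70, -0.37 and -0.50 (adjusted p = 0.0076, 0.033 and 0.024). The effects on SETD2, NSD3 and ASH1L were not called different between lines (adjusted p of the interaction = 0.21, 0.24 and 0.57). NSD1 controls were at 32.4 and 35.4 CPM in 253J, 155 and 126 in J82, 174 and 173 in RT112, and 149 and 145 in TCCSUP. With CM-1758 they were at 7.68 and 5.7, 56.7 and 37.4, 59.2 and 71.4, and 30.3 and 34.2 CPM. NSD1 was thus 5.08-, 2.99-, 2.66- and 4.56-fold lower, with log2 fold changes of -2.35 (SE 0.21), -1.58 (SE 0.19), -1.41 (SE 0.19) and -2.19 (SE 0.20) and adjusted p values of 4.2e-07, 1.3e-05, 3e-05 and 4.6e-07. NSD2, once known as WHSC1 and MMSET, went from 140 and 144 to 49.4 and 34.4 CPM in 253J, from 390 and 368 to 189 and 154 in J82, from 276 and 280 to 186 and 174 in RT112, and from 173 and 176 to 63.7 and 82.5 in TCCSUP. Its log2 fold changes were -1.76, -1.14, -0.63 and -1.25, and without RT112 CM-1758 replicate 2 the adjusted p in RT112 rose from 0.0071 to 0.053. NSD1 fell more than NSD2 in each line by more than the replicate spread, as the within-library log2 ratio of NSD2 to NSD1 counts rose by 0.57 (SD 0.09), 0.46 (SD 0.26), 0.79 (SD 0.26) and 0.93 (SD 0.15). NSD1 shares exon positions with a pseudogene on the opposite strand.

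**Figure D3:**
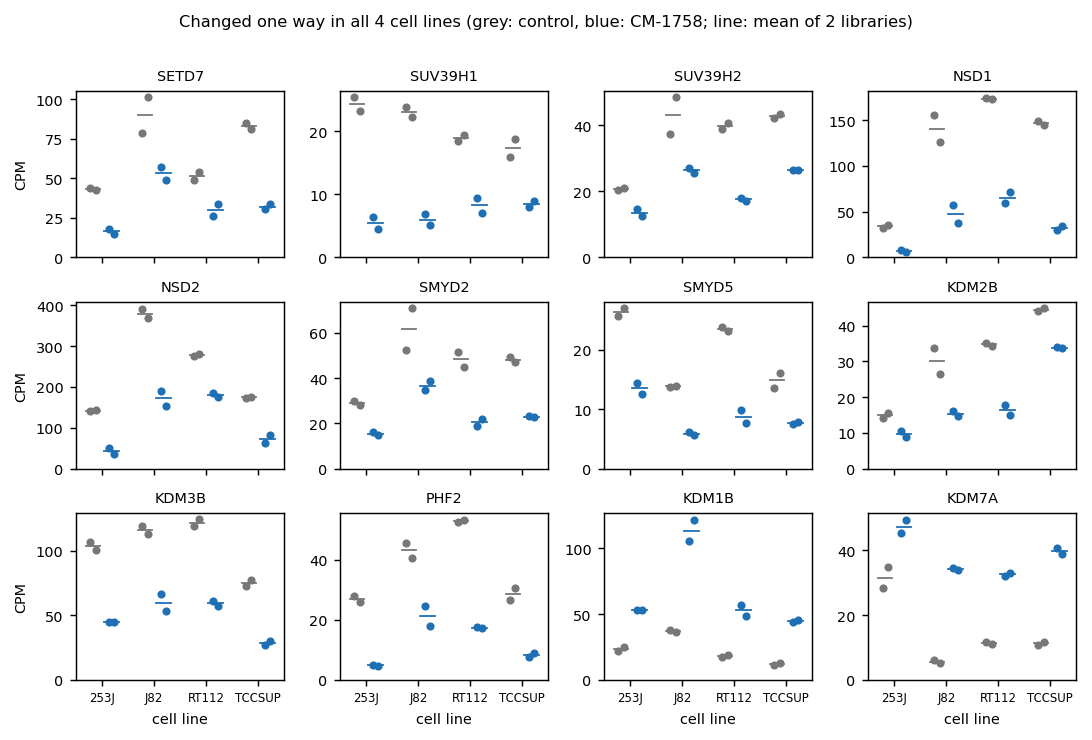
CPM of the 10 members lower and the 2 members higher in all 4 cell lines, with a point for each library (grey control, blue CM-1758) and a line at the mean of 2 libraries. In every panel and line both blue points lie on the same side of both grey ones, with KDM1B and KDM7A the panels where blue is above grey.

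DOT1L, the only known H3K79 methyltransferase, rose in 253J from 11.3 and 11.8 to 32.1 and 31.6 CPM (log2 fold change 1.46, SE 0.17, adjusted p = 3.7e-06). It also rose in RT112, from 20.3 and 23 to 32.7 and 34.9 CPM (0.64, SE 0.16, adjusted p = 0.0041), although the adjusted p was 0.054 without RT112 control replicate 1. In J82 and TCCSUP the libraries overlapped, with log2 fold changes of -0.29 and 0.12, and the effect differed between lines (adjusted p of the interaction = 0.00011). Of the H4K20 methyltransferases, KMT5A, which places the first methyl group in the cell cycle, was lower in J82 (-0.73) and TCCSUP (-0.94). KMT5B was lower in J82, RT112 and TCCSUP. KMT5C, which with KMT5B adds further methyl groups, was higher in J82 (0.59) and TCCSUP (0.91), the lines where KMT5A fell.

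SMYD2 and SMYD5 were lower in all 4 lines and their relative SMYD3 was not lower in any. SMYD2, which methylates lysines of histones and of p53, went from 29.9 and 28 to 16 and 14.7 CPM in 253J, from 52.4 and 70.9 to 34.6 and 38.6 in J82, from 51.5 and 45 to 18.9 and 22 in RT112, and from 49.5 and 47 to 23.3 and 22.7 in TCCSUP. The log2 fold changes were -0.91, -0.75, -1.24 and -1.07 (SE 0.15 to 0.16). SMYD5 had -0.96, -1.23, -1.43 and -0.95 (SE 0.16 to 0.17), with control libraries between 13.7 and 27 CPM and treated ones between 5.59 and 14.4. SMYD3 was 3.97-fold higher in 253J, where it rose from 2.79 and 2.76 to 12 and 10.1 CPM (log2 fold change 1.99, SE 0.19, adjusted p = 8e-07). It was higher in RT112 as well (0.57, SE 0.17, adjusted p = 0.011, and 0.12 without control replicate 2 or 0.061 without CM-1758 replicate 2). SMYD3 controls in 253J were the lowest of the lines, 8.74-fold below those of J82 on mean CPM.

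KDM1B, the flavin-dependent H3K4 demethylase also called LSD2, rose in all 4 lines. Its controls were at 21.6 and 24.9 CPM in 253J, 38.2 and 36.1 in J82, 17.7 and 18.8 in RT112 and 11.2 and 12.6 in TCCSUP. Under CM-1758 it was at 53.5 and 53, 106 and 121, 57.3 and 48.6, and 43.6 and 45.7 CPM, so each treated library was above every control library of its line. It was 2.29-, 3.05-, 2.9- and 3.75-fold higher, with log2 fold changes of 1.20, 1.61, 1.54 and 1.91 (SE 0.13 to 0.14) and adjusted p values from 7.3e-08 to 3.6e-06. KDM1A (LSD1), its relative in the CoREST complex with HDAC1 and HDAC2, rose in J82 from 149 and 156 to 287 and 334 CPM (log2 fold change 1.03, SE 0.15, adjusted p = 7.8e-05). KDM1A was higher too in RT112 (0.55, adjusted p = 0.0071) and TCCSUP (0.59, adjusted p = 0.0039), and lower in 253J (-0.39, SE 0.15, adjusted p = 0.043). The call in 253J was lost without control replicate 2 (adjusted p = 0.29), without CM-1758 replicate 1 (0.057) and without CM-1758 replicate 3 (0.22). The call in RT112 was lost without control replicate 2 (adjusted p = 0.090) and without CM-1758 replicate 1 (0.093). The effect on KDM1A differed between lines (adjusted p of the interaction = 0.00047), and the within-library log2 ratio of KDM1A to KDM1B counts fell in each line, by 1.59 (SD 0.34), 0.58 (SD 0.10), 0.98 (SD 0.22) and 1.31 (SD 0.23).

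The other H3K4 demethylases of the list, of the KDM5 family, moved by line. KDM5B, an H3K4 demethylase also known as JARID1B, was 3.25-fold higher in J82, at 128 and 119 CPM against 41.6 and 34.5 (log2 fold change 1.70, SE 0.15, adjusted p = 7.5e-07). Its log2 fold changes elsewhere were 0.33, 0.26 and 0.16 in 253J, RT112 and TCCSUP, none of them called, and the effect differed between lines (adjusted p of the interaction = 6.1e-05). J82 controls had the lowest KDM5B of the 4 lines, with RT112 6.44-fold above them at 244 and 246 CPM. KDM5A was higher in 253J and TCCSUP (0.62 and 0.36) and KDM5C lower in TCCSUP (-0.44).

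**Figure D4:**
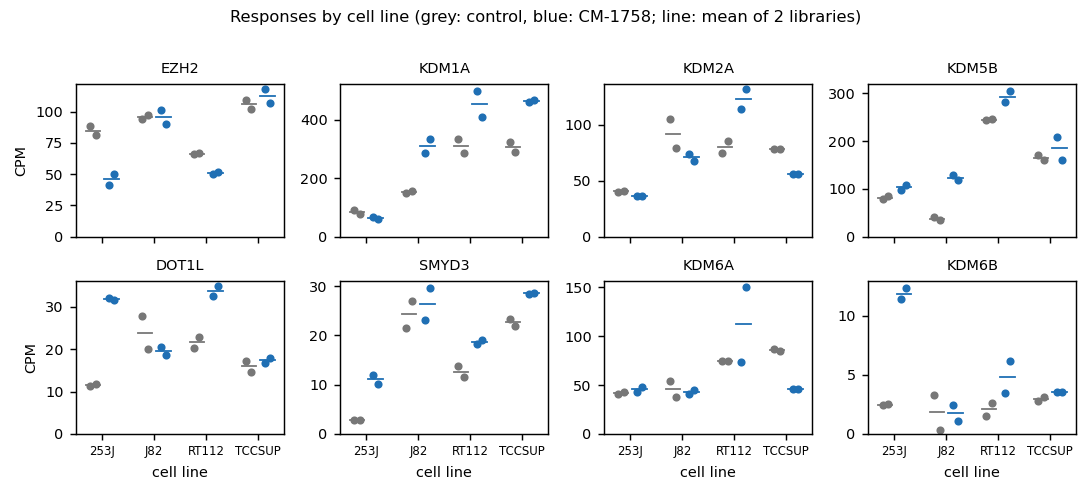
CPM by cell line of 8 members (EZH2, KDM1A, KDM2A, KDM5B, DOT1L, SMYD3, KDM6A and KDM6B), with grey points for control and blue points for CM-1758 libraries and a line at the mean of 2. KDM5B rises from a low control level in J82, SMYD3 and KDM6B rise in 253J, and the 2 treated KDM6A libraries of RT112 lie far apart, at 73.6 and 151 CPM.

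Of the H3K36 demethylases, KDM2B, which recruits a Polycomb complex to CpG islands, was lower in all lines with log2 fold changes of -0.62, -0.97, -1.09 and -0.39 (SE 0.15 to 0.16). In TCCSUP it went from 44 and 44.8 to 33.9 and 33.8 CPM (adjusted p = 0.035), a call lost when any 1 of the 4 libraries was left out (adjusted p from 0.098 to 0.12) and in 4 of the other settings. In 253J, KDM2B went from 14.3 and 15.5 to 10.6 and 8.77 CPM (adjusted p = 0.0035, and 0.052 without CM-1758 replicate 3), and this call too was lost with library size alone (adjusted p = 0.080). Its paralogue KDM2A was higher in RT112, at 114 and 131 CPM against 74.5 and 85.2 (log2 fold change 0.62, SE 0.14, adjusted p = 0.0024), and lower in TCCSUP, at 55.8 and 55.8 against 78.7 and 77.8 (-0.49, adjusted p = 0.010). In TCCSUP the KDM2A call was lost without either CM-1758 library (adjusted p = 0.051 and 0.053). In J82, KDM2A was at -0.38 (adjusted p = 0.044), and at -0.16 (adjusted p = 0.44) without control replicate 1, 0.12 without CM-1758 replicate 1 and 0.21 without CM-1758 replicate 3. The effect on KDM2A differed between lines (adjusted p of the interaction = 0.0013). KDM8, at 3.59 CPM or less in every library, was not called in any line, with log2 fold changes between -0.94 and -0.67.

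KDM3B, an H3K9 demethylase, was lower in all lines, from 107 and 100.4 to 44.6 and 45 CPM in 253J, 119 and 113 to 66.4 and 53.2 in J82, 119 and 124 to 61 and 57 in RT112, and 72.2 and 76.9 to 27 and 30.1 in TCCSUP. The log2 fold changes were -1.21, -0.95, -1.04 and -1.38 (SE 0.13), with adjusted p values between 8.8e-07 and 3.8e-05, and the effect was not called different between lines (adjusted p of the interaction = 0.20). Its paralogue KDM3A was higher in RT112 (0.48, adjusted p = 0.046) and was not called in the other lines. The within-library log2 ratio of KDM3A to KDM3B counts rose in each line, by 1.31 (SD 0.30), 0.91 (SD 0.25), 1.51 (SD 0.46) and 1.83 (SD 0.08) in 253J, J82, RT112 and TCCSUP. JMJD1C, the third gene of this family, was lower in TCCSUP (-0.57).

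The KDM4 enzymes, which act on H3K9 and H3K36, differed among themselves. KDM4C was higher in J82 (0.61), RT112 (0.58, adjusted p = 0.0047, and 0.055 without control replicate 2) and TCCSUP, where it went from 31.9 and 28.6 to 58.9 and 67.2 CPM (1.06, SE 0.15, adjusted p = 3.4e-05). KDM4B was higher in 253J (0.48) and TCCSUP (0.74). KDM4A was lower in 253J (-0.46) and J82 (-0.52). The within-library log2 ratio of KDM4A to KDM4B counts fell by 0.92 (SD 0.38) in 253J and 0.88 (SD 0.12) in TCCSUP, and its changes in J82 and RT112 (-0.15 and -0.03) were within the spread.

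The H3K27 demethylases KDM6A (UTX) and KDM6B (JMJD3) were each called in 1 line. KDM6A was lower in TCCSUP, at 45.6 and 45.6 CPM against 87.3 and 85.3 (log2 fold change -0.92, SE 0.24, adjusted p = 0.0050), and the effect differed between lines (adjusted p of the interaction = 0.011). In RT112 its treated libraries were at 73.6 and 151 CPM, 1 at the level of the controls (74.5 and 74.8) and 1 above them, with an adjusted p of 0.056. KDM6B was 4.82-fold higher in 253J, at 11.4 and 12.3 CPM against 2.43 and 2.49 (log2 fold change 2.27, SE 0.59, adjusted p = 0.0049). Its control libraries in J82 were at 3.31 and 0.364 CPM, a spread wider than any change there, and its log2 fold changes were 1.20 (adjusted p = 0.11) in RT112 and 0.28 in TCCSUP. Although KDM6B was called in 253J alone, its effect was not called different between lines (adjusted p of the interaction = 0.11).

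The PHF family of plant-homeodomain demethylases split 3 ways. PHF2, which acts on H3K9, went from 28 and 25.9 to 5.07 and 4.52 CPM in 253J, from 45.5 and 40.6 to 24.6 and 18 in J82, from 52.5 and 53.1 to 17.5 and 17.2 in RT112, and from 26.6 and 30.6 to 7.52 and 8.89 in TCCSUP. It was 5.63-, 2.02-, 3.04- and 3.48-fold lower, with log2 fold changes of -2.49 (SE 0.17), -1.01 (SE 0.16), -1.61 (SE 0.16) and -1.80 (SE 0.17) and adjusted p values of 5.6e-08, 0.00012, 1.8e-06 and 6.2e-07. The change in 253J was the largest fall of any member in any line. KDM7A, which acts on H3K9 and H3K27, rose from 6.12 and 5.13 to 34.6 and 33.9 CPM in J82, a 6.09-fold change (log2 fold change 2.61, SE 0.15, adjusted p = 2e-08). KDM7A went from 11.8 and 11.2 to 32.1 and 33.1 CPM in RT112, from 10.8 and 11.7 to 40.8 and 39 in TCCSUP, and from 28.3 and 35 to 45.5 and 49.3 in 253J. These were 2.84-, 3.55- and 1.5-fold rises in that order, with adjusted p values of 1.1e-06, 1.3e-07 and 0.0022. With CM-1758 the lines were closer together in KDM7A than in the controls: treated libraries lay between 32.1 and 49.3 CPM, and the control mean was 5.63-fold higher in 253J than in J82. PHF8, which acts on H3K9 and H4K20, was not called in any line.

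Before treatment the lines already differed. The level of 39 of the 47 members differed between the control libraries of the 4 lines, where 78.8% of all tested genes did, and 8 were not called (KMT2B, KMT2D, SETD1A, SUV39H1, EZH1, KDM8, KDM6B and PHF8). The mean control CPM of SMYD3 was 8.74-fold higher in J82 than in 253J, that of KDM5B 6.44-fold higher in RT112 than in J82, that of KDM7A 5.63-fold higher in 253J than in J82, and that of NSD1 5.12-fold higher in RT112 than in 253J. The response to CM-1758 differed between lines for 26 members, where 51.9% of all genes did. Among the 10 members lower in all lines, the size of the fall differed between lines for SETD7, SUV39H1, NSD1, NSD2, KDM2B and PHF2, and was not called different for SUV39H2, SMYD2, SMYD5 and KDM3B (adjusted p of the interaction = 0.092, 0.24, 0.22 and 0.20).

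**Figure D5:**
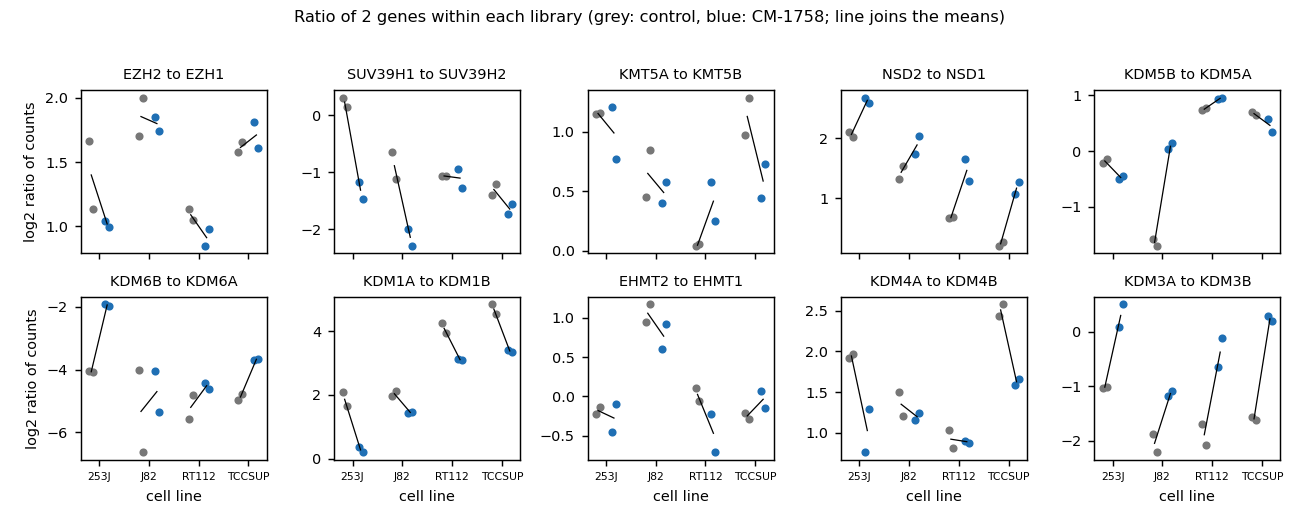
Log2 ratio of the counts of 2 related genes within each library, by cell line (grey control, blue CM-1758, line joining the means). The ratios of NSD2 to NSD1 and KDM3A to KDM3B rise and that of KDM1A to KDM1B falls in all 4 lines, whereas KDM5B to KDM5A rises steeply in J82, by 1.73.

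The partner subunits of these enzymes did not follow a single direction. Of 38 partner genes, 10 were higher and 12 lower in 253J, 8 and 10 in J82, 8 and 8 in RT112, and 11 and 8 in TCCSUP, with medians of -0.09, -0.10, 0.14 and -0.05. Of all tested genes, 28.8% were higher and 22.4% lower in 253J, 24% and 18.5% in J82, 27.4% and 20.2% in RT112, and 32% and 22.1% in TCCSUP. No difference of the partners, or of the groups below, from these shares was tested. Of 9 PRC2 partners, 2 were higher and 3 lower in 253J, 2 and 2 in J82, 3 and 3 in RT112, and 3 and 3 in TCCSUP. Called the same way in all 4 lines were PHF19, a PRC2 accessory subunit, with log2 fold changes of -2.93, -2.72, -1.37 and -3.24, the histone-binding subunit RBBP4 (-1.41, -0.36, -0.69 and -0.41) and JARID2, which recruits PRC2 (0.60, 0.52, 0.32 and 0.41). The core subunit EED was not called in any line, and SUZ12 was called in RT112 alone (0.38). Of 9 COMPASS subunits, which hold the H3K4 methyltransferases, 4 were higher and 2 lower in 253J, 1 and 5 in J82, 0 and 2 in RT112, and 2 and 2 in TCCSUP. Of 7 H3K9 partners, 1 was higher and 4 lower in 253J, 0 and 2 in J82, 1 and 3 in RT112, and 1 and 3 in TCCSUP, with TRIM28, the partner of SETDB1, lower in each line (-1.07, -0.77, -0.91 and -0.74). Of 6 CoREST genes, 2 were higher and 1 lower in 253J, and 3 and 0 in J82. RT112 had 3 and 0, and TCCSUP 2 and 0. RCOR1, the scaffold that KDM1A binds, was higher in all 4 lines (0.79, 0.41, 0.80 and 0.33). RCOR2, among the higher calls in J82, RT112 and TCCSUP, had treated means of only 1.21 CPM or less there. The 3 DOT1L partners gave 0 higher and 1 lower in 253J, 1 and 1 in J82, 0 and 0 in RT112, and 1 and 0 in TCCSUP, and the 4 genes of the KDM2B-containing Polycomb complex 1 and 1, 1 and 0, 1 and 0, and 2 and 0.

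Of 17 further genes with a SET or Jumonji domain, 5 were higher and 3 lower in 253J, 1 and 6 in J82, 4 and 6 in RT112, and 7 and 4 in TCCSUP. These counts, and those of the proliferation genes below, stand beside 24% to 32% of all tested genes higher and 18.5% to 22.4% lower by line. Some of the higher calls were of genes near 0. In 253J, SMYD1, PRDM9 and HR had treated means of 0.54 CPM or less. In TCCSUP, SMYD1, PRDM9 and PRDM16 had treated means of 0.822 CPM or less. PRDM9 in RT112 and PRDM16 in J82 had treated means of 0.347 and 0.575 CPM. RIOX2, a Jumonji-domain hydroxylase, was the only one of the 17 genes called the same way in all 4 lines (-1.29, -1.21, -0.99 and -0.61). Of 10 proliferation genes, 10, 9, 5 and 6 fell in the same order of lines, with MCM2 and MCM6 higher in TCCSUP, and with medians of -2.16, -0.99, -0.77 and -1.70. TYMS, which makes the thymidylate needed for DNA synthesis, was lower in each line (-1.87, -1.51, -1.14 and -1.63). The mitotic genes TOP2A and CCNB1 were lower in 253J, J82 and TCCSUP, and were -0.37 and -0.51 in RT112 without a call. MCM5, a subunit of the replicative helicase, fell in 253J (-2.05), J82 (-0.97) and RT112 (-2.07), and was -0.05 in TCCSUP without a call. The part of the proliferation genes' change in the members' falls was not tested.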

How the data were processed

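RNA from 16 libraries (4 bladder cancer cell lines, control or CM-1758, 2 libraries each) was sequenced after rRNA removal with a stranded total RNA kit. The authors deposited raw read counts per gene symbol in 1 matrix for all libraries, with no normalization. The submitters' processing notes name HISAT2, StringTie and the GRCh37 build, and the counter and its strand setting are not given in the sources used here.

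Groups were taken from the labels. Counts were analysed in R 4.3.3 with edgeR 4.0.16: genes were filtered with filterByExpr, libraries were scaled by TMM, and 1 quasi-likelihood model of 8 groups (8 residual degrees of freedom, common biological coefficient of variation 0.153) gave a contrast of CM-1758 against control for each line. P-values were adjusted over all 21297 tested genes with the Benjamini-Hochberg method, within each line. The difference of the effect between lines was tested as an interaction, and the lines' control levels as a comparison of 4 groups. SE was taken as the size of the log2 fold change over the root of its F statistic. Ratios of related genes are log2 of counts with 0.5 added, within a library, with no test. Totals of 22506431 to 32537104 counts set the precision, and values cover counting and replicate error of 2 libraries. The labels name no batch.

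The members and gene lists were chosen with earlier results of these data known. Members described in full were those called the same way in all 4 lines or in both directions, the 3 largest and 3 smallest log2 fold changes among the called members of each line, and EZH1, EZH2, KDM1A, KDM5B, KDM6A and KDM6B. Others are given by range and count. Partner and SET or Jumonji genes were named where called the same way in all 4 lines. A few core subunits, and some genes at low counts, were added after their values were seen. Counts were also simulated from the control levels of each line, with known changes put into J82 (18836 genes tested). The test recovered 62 of 100 genes changed 2-fold and 94 of 100 changed 4-fold, with 8 false calls. Only these genes were changed, as many up as down, whereas in the data 24% of genes were called higher and 18.5% lower in J82. The simulation thus does not cover a response of that breadth or its effect on scaling. Alternatives were RLE and library-size scaling, DESeq2 1.42.0, fits of each line alone, other filters, a replicate block, thinned counts, leaving out 7 small noncoding RNA genes, and leaving out each library. Promoter sequences and motif counts come from RefSeq (GRCh38.p14) and overlapping genes from GENCODE v29, for gene models and not for counts.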

Additional observations from a re-analysis of the deposited data

Results flagged for a closer look

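For 26 of the 47 members the effect of CM-1758 differed between the 4 cell lines in the interaction test (edgeR, adjusted p under 0.05), which 51.9% of all tested genes also passed. The value given for each is the largest difference between 2 lines in the log2 fold change. Doses differed between lines, so line and dose cannot be told apart.

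Among these 26, the largest differences were those of KDM7A (2.02, from 0.58 in 253J to 2.61 in J82), SMYD3 (1.87, from 0.12 in J82 to 1.99 in 253J) and DOT1L (1.76, from -0.29 in J82 to 1.46 in 253J). KDM5B differed by 1.54, with its highest value in J82, KDM6A by 1.51, between RT112 and TCCSUP, and KMT2A by 1.48, between RT112 and J82. PHF2 was lower in each line and still differed by 1.48. KDM1A differed by 1.42 and KDM2A by 1.11, and both were called in both directions among the lines. The lower call of KDM1A in 253J, and those of KDM2A in J82 and TCCSUP, depended on single libraries, as described above. KMT5C differed by 1.33. KDM6B, which did not pass the interaction test (adjusted p = 0.11), had a larger difference, 2.31, than any of them.

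Among the other methyltransferases, NSD2 differed by 1.13, SUV39H1 by 1.11, KMT2E by 1.04, EZH2 by 0.97, NSD1 by 0.93, KMT5A by 0.66, SETDB1 by 0.66, SETD7 by 0.64 and EHMT2 by 0.56. Among the other demethylases, KDM4B differed by 1.12, JMJD1C by 1.01, KDM4C by 0.89, KDM4A by 0.78, KDM1B by 0.71, KDM2B by 0.70 and KDM5A by 0.64. With 2 libraries a group, no single library was tested for standing apart from its group.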

How the results depend on the processing

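Of the 104 calls of a member in a line, no sign reversed under any alternative run. The 10 alternatives that refit all lines kept between 85 (library size alone) and 104 of them, and DESeq2 in 1 fit kept 102. Under library size alone the counts in TCCSUP were 13 higher and 11 lower, and in RT112 14 and 13. RT112 also had 14 higher and 13 lower with at least 10 counts in every library. In fits of each line alone, by edgeR or DESeq2, it had 14 and 14. With a 2-fold limit the higher and lower members were 4 and 6 in 253J, 4 and 6 in J82, 4 and 8 in RT112, and 3 and 7 in TCCSUP. The shares of all tested genes at the 2-fold limit were not computed, so those counts have no background beside them. At the study's thresholds the higher and lower members were 1 and 3, 1 and 0, 0 and 0, and 0 and 1 in the same order. Leaving out 1 library gave 7 to 8 higher and 15 to 17 lower members in 253J, 5 to 8 and 15 to 28 in J82, 6 to 10 and 12 to 13 in RT112, and 6 to 7 and 13 to 16 in TCCSUP, the 6 coming without RT112 control replicate 2 and the 13 lower in TCCSUP without its CM-1758 replicate 1. A fit with fewer libraries has fewer degrees of freedom, and its lone library is assumed to vary like the other groups. The median log2 fold change of the members under library size alone was -0.00574 in 253J, 0.14 in RT112 and 0.11 in TCCSUP. With at least 10 counts in every library it was 0.12 in RT112 and -0.0451 in TCCSUP, and in TCCSUP it was -0.15 with RLE scaling and -0.15 with DESeq2 in 1 fit. Leaving out 1 library it ranged from -0.33 to -0.22 in 253J, -0.52 to -0.16 in J82 (the latter without control replicate 1), -0.15 to 0.11 in RT112 and -0.36 to -0.17 in TCCSUP, so that its sign in RT112 is not settled. The cause of these shifts was not tested. Of the 12 members called the same way in all 4 lines, 11 kept those calls under the 10 alternatives, KDM2B being the exception, and 45 of their 48 calls held in every fit with 1 library left out, the others being KDM2B in 253J and TCCSUP and NSD2 in RT112. The count of members whose effect differs between lines was 25 to 28 over its alternatives and that of members differing between control lines 38 to 39. The replicate numbers in the labels were not taken as pairing the libraries, since not every correlation was over 0.1: deviations of same-numbered libraries correlated at 0.05, 0.22, 0.04 and 0.02 in 253J, J82, RT112 and TCCSUP, with 1 shared number in 253J. A fit with the replicate number as a block kept 101 of the 104 calls and added 14, and in J82, the line with the highest of these correlations, the lower members went from 19 to 25.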
